A study of Mus musculus with 3 samples.

Results

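Amacrine cells of the mouse retina at postnatal day 14 (P14) were described from single-cell counts of retinas of an *Sstr2* allelic series. They are the 68 cells that the authors annotated as amacrine among 3298 cells of the P14 library (2.06%, exact Clopper-Pearson 95% interval 1.605 to 2.61%), of 14611 cells in the series. They were compared with the 1013 cells annotated as amacrine among 5706 cells of the library from newborn retinas (P0). Both libraries came from untreated littermates of a mixed C57BL/6NCrl and CD1 background. Their *Sstr2* genotypes were wild type (Sstr2 +/+), heterozygous (Sstr2 +/-) and knockout (Sstr2 -/-), and the mutant allele was made by targeted deletion. Each library pooled 1 wild-type, 2 heterozygous and 2 knockout samples, dissociated with papain, tagged with lipid-bound oligos (MULTI-seq) and counted as unique molecular identifiers (UMIs) by 10x Chromium 3' sequencing. A sample is called a retina here, although how many retinas it held, and from how many animals, is not stated in the sources used here. The p-values below therefore measure the spread between these samples. Each age was 1 library, so age and library cannot be told apart. None of the 68 cell barcodes occurred in another library, and 7 barcodes were shared between all P0 and all P14 cells.

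Amacrine cells are the inhibitory interneurons of the inner retina. They receive input from bipolar cells and from each other, and most release either GABA or glycine. GABA is made from glutamate by the decarboxylases Gad1 and Gad2, whereas glycinergic cells are recognised by the glycine transporters Slc6a9 (GlyT1) and Slc6a5 (GlyT2). Both transmitters are loaded into vesicles by Slc32a1, so that this transporter does not separate the types. The transcription factors Tfap2a and Tfap2b mark amacrine cells, and Tfap2b is also made by horizontal cells, the inhibitory interneurons of the outer retina.

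The 68 cells were spread unevenly over the retinas. The wild-type retina gave 15 of them, heterozygous 1 and 2 gave 4 each, and the retinas labelled knockout 1 and 2 gave 22 and 23. Summed over these cells, depth was 323132 UMIs for the wild type, 66533 and 12722 for heterozygous 1 and 2, and 128979 and 239786 for the retinas labelled knockout 1 and 2. Single cells held 1476 to 80410 UMIs (median 4512.5) and 803 to 8002 genes. At P0 the retinas gave 160 to 232 amacrine cells with 1429941 to 1864496 UMIs each, so the P0 values are the more precise. The Scrublet doublet caller marked 2 of the 3298 P14 cells, none of them amacrine, and 0.123% of the P0 cells, which was taken as a failed call, so doublets were not removed.

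The label was set beside the markers of amacrine cells. The authors named each cluster from its marker genes, so higher levels of these markers than in other cells are no independent check. On the map (UMAP) that the authors deposited, 57 cells formed one group and 11 formed a separate island. The plot of that map shows both. In the 57 cells all 5 amacrine markers were detected. Tfap2b was counted in 27 of the cells, Slc32a1 in 26, Gad1 in 25, Tfap2a in 15 and Slc6a9 in 14. Of the 57 cells, 29 had a UMI of Tfap2a or Tfap2b, 45 had one of these, Slc32a1, a Gad gene or a glycine transporter, and 12 had none of them. Tfap2a stood at 143 counts per 1000000 UMIs (CPM) in the 57 cells against 1.06 CPM in all other P14 cells, and Tfap2b at 853 against 6.84 CPM. In the 11 island cells Tfap2b stood at 1248 CPM and Slc32a1 at 157 CPM, but Gad1 was at 2 UMIs in 1 cell, and Gad2, Slc6a9 and Slc6a5 were at 0.

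**Figure D1:**
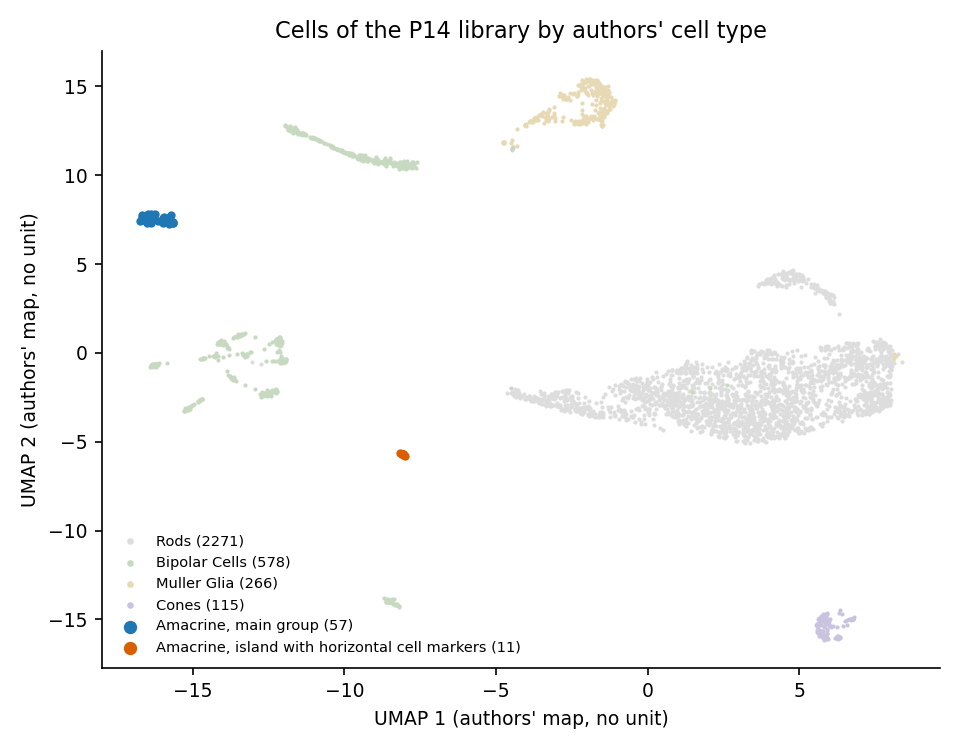
Each point is 1 cell of the P14 library at its position on the authors' map (UMAP 1 and UMAP 2, no unit), coloured by the authors' cell type. The 68 amacrine-labelled cells form a group of 57 (blue) and a separate island of 11 (orange).

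The island cells carried the markers of horizontal cells and are called horizontal-like below. The LIM factor Lhx1, which horizontal cells need to settle in their layer, had 290 UMIs in 10 of the 11 cells and 0 in the 57. Onecut1, a factor required for horizontal cell fate, had 70 UMIs in 9 cells and 0 in the 57. The calcium-binding protein Calb1 had 1492 UMIs in 11 cells against 20 UMIs in 7 of the 57, and the septin Sept4 had 1578 in 11 cells against 20 in 12 cells. At least 2 UMIs of Lhx1 and Onecut1 together were found in 10 of the 11 cells and in none of the 57. The Scrublet score of these 11 cells reached at most 0.107, and their median UMI count was 29044 against 4348 in the 57. The wild-type retina held 4 of them, heterozygous 1 held 1, heterozygous 2 held 0 and the retinas labelled knockout held 3 each. Although few, they supplied 414944 of the 771152 UMIs of the amacrine label (53.8%), and in heterozygous 1 a single cell supplied 88.9%. At P0 an island of 15 of the 1013 cells, all with at least 2 UMIs of Lhx1 and Onecut1 together, supplied 2.80% of the UMIs. Of these P0 cells 14 had a Gad UMI (52 UMIs in all), against 1 of the 11 at P14. The main results below are therefore given with and without these cells, and the island was set apart after the values were seen.

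**Figure D2:**
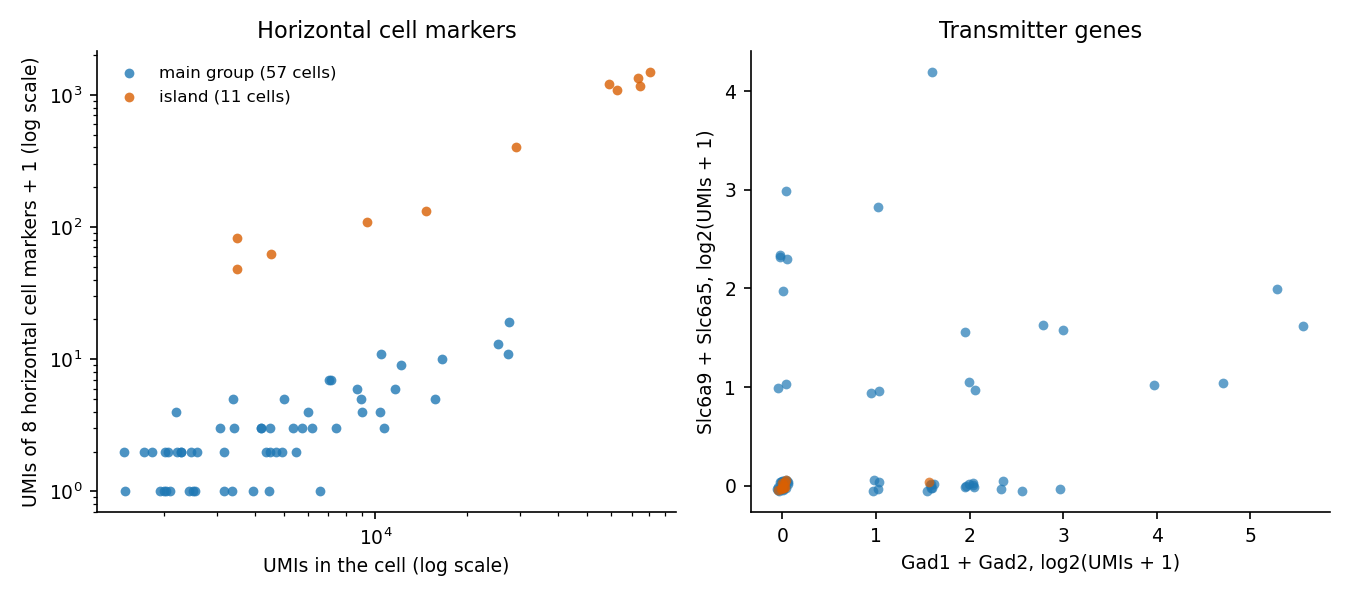
Each point is 1 of the 68 cells. Left, the summed UMIs of 8 horizontal cell markers plus 1 against the UMIs of the cell (both log scales). Right, the UMIs of both glycine transporters against those of both Gad genes, as log2(UMIs + 1) with a small seeded jitter. The 11 island cells lie above all 57 others on the left, and only 1 of them has a Gad UMI.

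The pooled 68 cells were set beside all other P14 cells. The genes entered the authors' clustering, so the ratios are a description without a test. Of the 15 genes with the largest ratio, Lhx1 led (376 against 0.311 CPM), followed within the 5 leading genes by Wfdc10, Onecut3, Calb1 (1961 against 3.98 CPM) and Prkg2. Prkg2, a cGMP-dependent kinase, had 52 UMIs in the 68 cells and 0 in all others, a ratio of at least 361 against a floor of 3 UMIs over those cells. Of the same 15 genes, Lhx1, Onecut1, Onecut3, Prkg2, Lhx1os and Gm20649 were at 0 in the 57 cells, whereas Gng8 and Crabp1 were at 0 in the island.

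Without the island the 15 genes with the largest ratio were Gng8, Crabp1, C1ql2, Snhg11, Nhlh2, Cartpt, Rbfox1, Slc32a1, Cnr1, Tfap2a, Nrn1, Stmn2, Gad2, Ripor2 and Tfap2b. Crabp1, a retinoic acid binding protein, stood at 354 CPM in 12 of the 57 cells against 0.995 CPM in the other cell types. The neural noncoding RNA Snhg11 was counted in 55 of the 57 cells and stood at 5084 against 23.3 CPM. Nhlh2, a bHLH factor, was counted in 15 cells, and Cnr1, the neuronal cannabinoid receptor, in 16. Some of these genes rested on few cells. Gng8 and Nrn1 were each counted in 4 cells only, and C1ql2 in 8.

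A few cells carried markers of ganglion cells, the output neurons of the retina. At least 2 UMIs of Rbpms, Pou4f1, Pou4f2 and Slc17a6 together were found in 5 of the 57 cells, 4 of them in the wild-type retina and 1 in knockout 1. These 5 cells held no Tfap2a or Tfap2b UMI, 4 Gad UMIs in 2 cells and 2 glycine transporter UMIs in 1 cell. Slc17a6, the vesicular glutamate transporter of ganglion cells, had 32 UMIs in 5 of the 57 cells. The 17 ganglion cell markers summed to 709 UMIs in the 57 cells, with Nefl the most abundant of them over the 68 cells.

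The 57 cells were next divided by their transmitter genes. At least 1 UMI of Gad1 or Gad2 was found in 33 cells (57.9%, exact Clopper-Pearson 95% interval 44.1 to 70.9%), and at least 1 UMI of Slc6a9 or Slc6a5 in 20 cells (35.1%, 22.9 to 48.9%). Of these, 20 cells had a Gad gene only, 7 a glycine transporter only and 13 had both, and 17 had neither. Over all 68 cells the shares were 50.0% (37.6 to 62.4%) for Gad and 29.4% (19.0 to 41.7%) for the glycine transporters. The intervals cover counting error only. A transcript can also come from free RNA in the droplets, so the same shares were taken in the other cell types of the library. Among 2271 rods (median 3374 UMIs), 2.16% had a Gad UMI and 8.50% a glycine transporter UMI. Among 578 bipolar cells (median 3939.5 UMIs) the shares were 2.08% and 3.81%, and among 266 Muller glia (median 15108 UMIs) they were 6.77% and 5.64%. Among 115 cones (median 10245 UMIs) they were 2.61% and 12.2%. Both shares of the 57 cells were above those of all 4 other types, and the glycine share by the smaller margin.

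Depth set part of these shares. The 13 cells with both kinds of gene had a median of 8698 UMIs, the 20 Gad-only cells 4073.5, the 7 glycine-only cells 4481 and the 17 cells with neither 2509. When each cell was thinned to 2000 UMIs, which leaves out 5 shallower cells, the expected share with both fell to 6.83% of 52 cells, that with Gad was 46.3% and that with a glycine transporter 20.3%. Rods at the same depth were at 1.31% and 5.05%. The glycine share there was 1.44% in bipolar cells, 1.17% in Muller glia and 1.98% in cones, so that rods stood above the other types, and whether their UMIs are free RNA was not tested. With at least 2 UMIs required, 26 of the 57 cells had Gad, 12 the glycine transporters and 6 both.

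Of the 17 cells with neither transmitter gene, the shallowest of the 4 classes, 5 held a UMI of Tfap2a, Tfap2b or Slc32a1, and 3 carried ganglion cell markers. An Ebf1 or Ebf3 UMI was found in 11 of the 17, against 1 of the 20 Gad-only cells, 4 of the 7 glycine-only cells and 4 of the 13 cells with both. Ebf1 and Ebf3 are transcription factors of subsets of amacrine and ganglion cells. Over the 57 cells, Ebf1 had 169 UMIs in 19 cells, of which 4 had a Gad UMI and 7 a glycine transporter UMI. The classes were too small for a comparison over retinas, and these counts have no test.

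Cells with only Gad and cells with only a glycine transporter differed most in the following genes, which were picked by the ratio of CPM and are given without a test. In the 7 glycine-only cells, the glycine receptor subunit Glra3 had 32 UMIs in 5 cells, against 1 UMI in the 20 Gad-only cells, although those held 84909 UMIs in all against 41587. The bHLH factors Nhlh2 (22 UMIs in 4 cells against 1) and Tcf4 (103 UMIs in 6 cells against 8 in 5) followed the same pattern. The other 5 genes named on this side were Rps3a1, Higd1a, Tmsb4x, Cox7a2 and Rps25, which include 2 ribosomal proteins. In the 20 Gad-only cells, the microtubule protein Map1b had 132 UMIs in 15 cells against 2 in 2 cells, and the axon guidance gene Nav2 47 UMIs in 11 cells against 1. The calcium channel subunits Cacna1a (29 UMIs in 10 cells) and Cacna2d1 (28 in 11) and the semaphorin receptor Plxna2 (28 in 14) had 1 UMI each in the glycine-only cells. BC030499 and Eif4g1 had 29 and 28 UMIs against 1 each. The peptide precursor Cartpt had 35 UMIs in 4 Gad-only cells against 1. When all 68 cells were used, Sept4 and Vim led the Gad-only side, and the added cell was a single island cell with 2 Gad1 UMIs.

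Several marker genes of rare amacrine subtypes were sparse or at 0. Of the genes of the cholinergic starburst cells, Chat had 5 UMIs in 2 cells. Slc18a3 and Slc5a7, which load acetylcholine and take up choline, were at 0. Isl1, the most abundant gene of that list over all amacrine-labelled cells, had 21 UMIs in 12 of the 57 cells. The rate-limiting enzyme of dopamine synthesis Th and the dopamine transporter Slc6a3 had no row in the P14 table. Among the neuropeptides Vip, Sst, Penk and Crh were at 0, while Tac1, the substance P precursor, had 33 UMIs in 5 cells and Npy 5 UMIs in 5 cells. Cartpt was unevenly spread, with 220 UMIs in 10 cells and 165 of these in 1 cell. The calcium-binding protein Calb2, a marker of AII and other amacrine cells, had 141 UMIs in 13 cells. A count of 0 in the 57 cells limits the cells with a UMI, and not the cells that express the gene.

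Changes between P0 and P14 were tested over the 5 retinas of each age. UMI counts of the amacrine-labelled cells were summed per retina, scaled by TMM and tested in edgeR (quasi-likelihood, Benjamini-Hochberg adjustment). The CPM given here, and whether retinas overlapped in them, are without TMM. The TMM factor was 2.32 for heterozygous 2 of P14, 0.868 to 0.975 for the other P14 retinas and 0.891 to 0.911 at P0. Without the horizontal-like cells it was 2.14 for heterozygous 1 and 1.54 for heterozygous 2 of P14. In heterozygous 2 of P14, 3 UMIs made 236 CPM. Of 8068 genes tested, 1592 were higher at P14 (19.7%) and 1758 lower (21.8%), or 41.5% in either direction. With the horizontal-like cells left out 7456 genes were tested, of which 1299 were higher (17.4%) and 1486 lower (19.9%), or 37.4% in either direction. Of the 7444 genes tested in both, 2149 were called in the same direction in both fits, which is 69.9% of the calls with all cells and 77.4% of those without, and 8 were called in opposite directions. Every P14 retina was above every P0 retina for 688 genes (8.53%), and every one below for 1511 (18.7%), against 585 (7.85%) and 1405 (18.8%) without the island. The scaling changed the balance of the calls. With DESeq2's size factors in edgeR 36.5% of the calls were higher, against 47.5% with TMM, and the median log2 fold change of all genes moved from -0.09 to -0.27. Leaving out the horizontal-like cells, DESeq2, which changed both the scaling and the test, gave 23.95% higher, with a median of -0.62. The balance also depended on 1 retina. Without the horizontal-like cells and knockout 2 of P14, edgeR called 857 genes higher and 3091 lower (median -0.77).

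Measures of RNA quality moved with age and are given here beside all age results. At P14 mitochondrial transcripts made up 9.52, 8.17, 19.1, 19.8 and 8.73% of the amacrine UMIs of wild type, heterozygous 1 and 2 and knockout 1 and 2, against 4.08 to 4.37% at P0. Ribosomal protein transcripts made up 0.739 to 4.97% at P14 and 14.7 to 15.6% at P0. Over all P14 cells, these shares were 6.15 to 8.79% and 6.67 to 7.63%. Gm42418, a gene that overlaps ribosomal RNA, stood at 8702 to 47005 CPM at P14 and 533 to 662 CPM at P0. Their part in the age results was not tested. Rod transcripts were also present. Gnat1, the alpha subunit of rod transducin, stood at 99.1, 90.3, 78.7, 349 and 313 CPM in the amacrine cells of wild type, heterozygous 1 and 2 and knockout 1 and 2 at P14, at 0 to 0.678 CPM in those at P0, and at 2393 CPM in all other P14 cells.

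Among the 10 genes with the largest rise were Gnat1, Slc24a2, Rcvrn, Syt2, Snhg11, Faim2, Pcsk6, Sparcl1 and Slc4a3. Gnat1 and Rcvrn belong to rod phototransduction, and 15 of the 16 rod markers tested were higher at P14, against 19.7% of all genes. For Gnat1, with 159 UMIs at P14 and 2 at P0, the ratio of CPM was 854 (counting interval 233 to 7115). When an estimated share of rod RNA was removed, 3190 of 8020 genes were called, and Gad1, Snhg11 and Slc24a2 kept their direction and call. Slc4a3, an anion exchanger, stood at 3162 CPM in the horizontal-like cells and 166 CPM in the 57. The same held for Pcsk6 (323 against 8.42 CPM), a proprotein convertase, and Syt2 (340 against 19.7 CPM), a synaptotagmin. Faim2, an inhibitor of Fas-driven cell death (log2 fold change 6.76 ± 0.31 SE, adjusted p = 9.23e-15 by edgeR), and the synaptic matrix protein Sparcl1 (6.48 ± 0.35, 9.57e-14) were also higher without the island, at 5.66 ± 0.39 and 6.70 ± 0.44.

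Without the horizontal-like cells the 10 largest rises included Gnat1, Snhg11, Lamp5, Sparcl1, Cartpt, Faim2, Gm42418, Trank1 and Gngt1. Lamp5, a membrane protein of some inhibitory neurons, had 132 UMIs in the 57 cells and 0 in the island, and rose by 6.91 ± 0.42 (adjusted p = 4.85e-17 by edgeR). Cartpt rose by 6.34 ± 0.44, but its CPM without the island ran from 48.9 in knockout 1 to 2697 in heterozygous 1, where 3 cells remained.

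The 10 largest falls were Carhsp1, Neurog2, Cldn5, Mybl1, Klhl35, Ripply3, Tead2, H19, Atoh7 and Baz1a, all of which had 0 UMIs in the P14 amacrine cells. Neurog2 and Atoh7 are proneural factors of newborn neurons and their precursors, and Ripply3 and Tead2 act in transcription in developing tissue. Neurog2 had 664 UMIs at P0 and was at least 20.6-fold lower at P14, against a floor of 3 UMIs over the P14 retinas. Carhsp1 was at least 23.7-fold lower and Atoh7 at least 8.22-fold lower. Cldn5, a tight junction protein of vessels, was at least 18.5-fold lower. Without the horizontal-like cells, Frat2, Gamt and Gngt2 took the places of H19, Atoh7 and Baz1a in this list. These 3 genes had 4, 9 and 1 UMIs in the island.

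The amacrine identity genes did not move together. Tfap2a stood at 328, 308, 289, 316 and 288 CPM in the wild-type, heterozygous 1 and 2 and knockout 1 and 2 retinas at P0, and at 68.1, 15.03, 157, 46.5 and 125 CPM at P14. The ages did not overlap. The log2 fold change of Tfap2a was -2.05 ± 0.34 (SE, adjusted p = 2.15e-05 by edgeR), and -1.28 ± 0.29 without the island. Tfap2b stood at 751 to 1180 CPM at P0 and 543 to 1638 CPM at P14, with overlapping retinas and a log2 fold change of -0.08 ± 0.46 (adjusted p = 0.909 by edgeR). Tfap2b did pass, as lower at P14, in 3 of the alternatives that left out the island, with DESeq2 for example (-0.99). Of the 34 transcription factors of the amacrine list that were tested, 4 were higher and 21 lower, against 19.7% and 21.8% of all genes, with a median log2 fold change of -1.34 against -0.09. Without the island 4 of 33 were higher and 17 lower (17.4% and 19.9% of all genes), with a median of -1.004 against -0.13. Prdm13, Neurod4, Barhl2 and Zfhx3, which act in amacrine specification or in young amacrine cells, were lower with and without the island. Barhl2 did not pass when cells were thinned to 2000 UMIs (-0.63 with all cells and -0.96 without the island). Prdm13, for example, fell by 3.19 ± 0.38, and by 2.39 ± 0.38 without the island. Ebf1 rose by 2.87 ± 0.34 (adjusted p = 1.40e-07 by edgeR), from 11.8 to 61.5 CPM at P0 to 90.2 to 707 CPM at P14. Nfix, a nuclear factor I gene of late retinal cells, rose by 3.52 ± 0.55, although it was at 0 in heterozygous 1 and did not pass without knockout 2 (1.29).

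Of the 2 genes that make GABA, Gad1 was higher and Gad2 lower at P14. Gad1 stood at 64.3, 58.0, 60.6, 49.4 and 41.7 CPM at P0. At P14 it stood at 99.0, 45.1, 314, 271 and 254 CPM over all cells, and at 333, 405, 314, 428 and 371 CPM without the island. With all cells, heterozygous 1, whose RNA came mostly from 1 island cell, lay among the P0 retinas, and without the island every P14 retina was above every P0 retina. Some of these P14 values rest on few UMIs. Without the island heterozygous 1 held 7416 UMIs in 3 cells, with 3 Gad UMIs, all in 1 cell. Heterozygous 2 held 12722 UMIs in 4 cells. Gad1 rose by 1.66 ± 0.27 (adjusted p = 1.80e-05 by edgeR) with all cells, and by 2.73 ± 0.22 (adjusted p = 1.39e-13) without the island.

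Gad2, the decarboxylase of the nerve terminal, fell by 1.81 ± 0.35 (adjusted p = 1.77e-04 by edgeR), from 336, 273, 258, 282 and 324 CPM at P0 to 102, 0, 314, 46.5 and 113 CPM. The P14 value of heterozygous 2 lay within the P0 range in CPM, which leave out the TMM factor of 2.32 that the fit gave this retina. Without the island the fall was 0.75 ± 0.30 (adjusted p = 0.0493), and the call was lost in 9 alternatives, among them leaving out the ganglion-marked cells as well (-0.76). Slc32a1 stood at 64.9 to 85.8 CPM at P0 and, with all cells, 120 to 238 CPM at P14, without overlap. It rose by 1.27 ± 0.22 (adjusted p = 3.36e-05 by edgeR). In heterozygous 1 of P14 all 8 Slc32a1 UMIs lay in the island cell. Without the island that retina was at 0, below the P0 retinas, so the ages were not apart. The rise of Slc32a1 was 1.35 ± 0.26 without the island, a call that was lost when knockout 2 was left out too (0.42). Of the 7 GABA genes tested, 2 were higher and 2 lower with all cells, where 19.7% and 21.8% of all genes were. Without the island 5 were higher and 1, Gad2, lower, where 17.4% and 19.9% of all genes were.

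**Figure D3:**
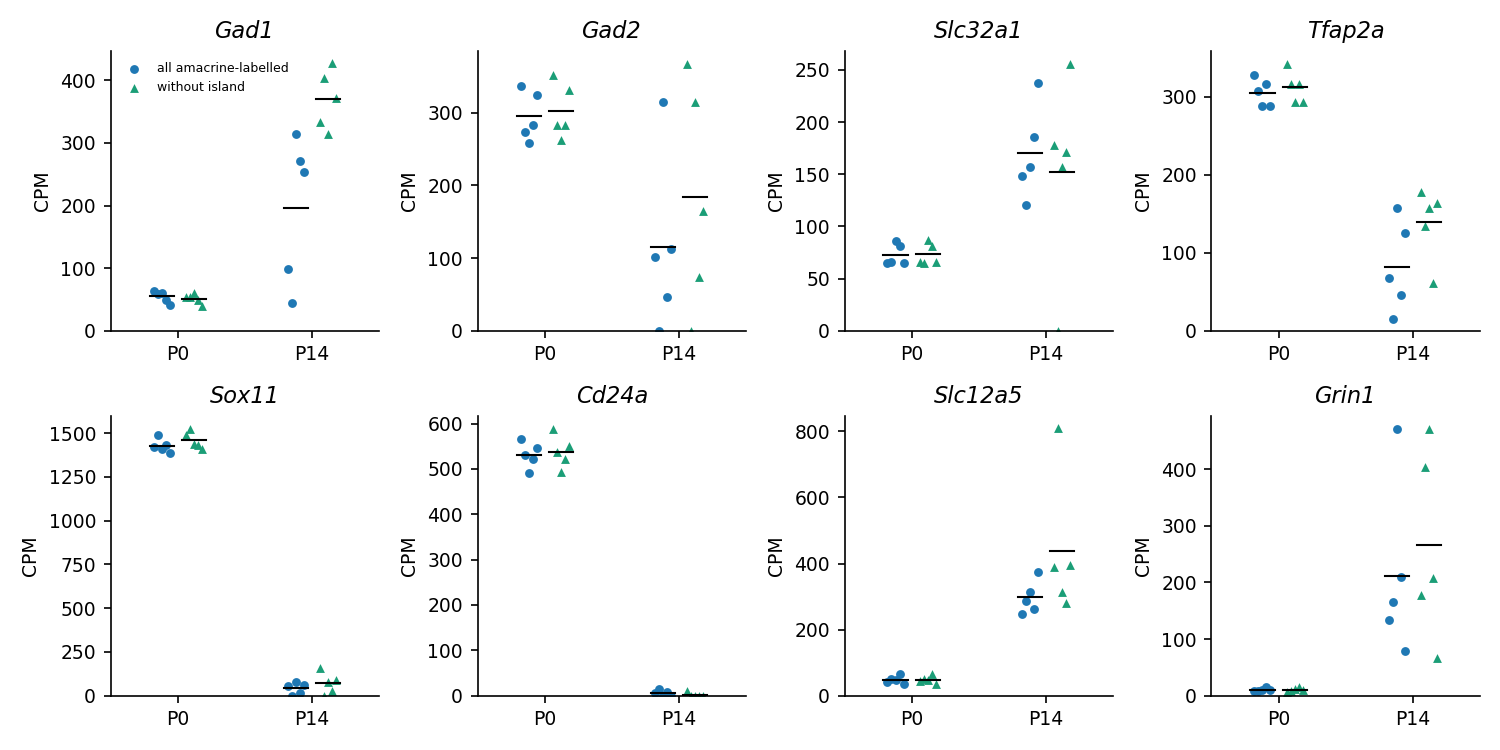
Levels in CPM of 8 genes in the 5 retinas of each age, for all amacrine-labelled cells (circles) and without the island cells (triangles). Points run from left to right as wild type, heterozygous 1, heterozygous 2, knockout 1 and knockout 2, and each bar is the mean of 5 retinas. Tfap2a, Sox11 and Cd24a lie lower at P14 in every retina, and Slc12a5 and Grin1 higher.

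The glycine transporter Slc6a9 did not pass edgeR's filter on low counts. It stood at 9.18, 9.09, 6.44, 4.06 and 1.69 CPM at P0, and at 6.19, 0, 393, 46.5 and 167 CPM at P14. Only heterozygous 2 and the retinas labelled knockout were above P0, and rods of the same library stood at 25.2 CPM. The 4 cells of heterozygous 2 held 4 glycine transporter UMIs in 1 cell and 1 UMI in another. In heterozygous 2 the Muller glia markers summed to 3930 CPM, the highest of the P14 retinas. Their part in these values was not tested. Without a filter the log2 fold change was 3.23 ± 0.37 (adjusted p = 1.04e-14 by edgeR), and that of Slc6a5 was 2.19 ± 0.65 (adjusted p = 0.00427).

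The shares of cells with a transmitter gene were compared between ages at 2000 UMIs per cell. Gad1 or Gad2 was expected in 37.9, 31.9, 46.4, 44.0 and 32.9% of amacrine cells of the wild-type, heterozygous 1 and 2 and knockout 1 and 2 retinas at P14 (38.6% ± 6.48, SD, n = 5). At P0 it was expected in 49.0, 44.4, 43.2, 43.2 and 46.3% (45.2% ± 2.48, SD, n = 5). The ages overlapped, and the difference of -6.57 percentage points did not pass (p = 0.0952, adjusted p = 0.119, two-sided exact permutation test, smallest possible p 0.00794). At 3000 UMIs it was -10.7 points (adjusted p = 0.0159, exact permutation test), and without heterozygous 2 of P14 -8.51 points (adjusted p = 0.0476, exact permutation test). It was 5.95 points in the other direction with at least 2 UMIs required (adjusted p = 0.103, exact permutation test). Without the horizontal-like cells it was 1.82 points, also in the other direction (adjusted p = 0.532, exact permutation test). Without thinning the shares were 46.6% and 79.4%, a difference of -32.8 points (adjusted p = 0.0159, exact permutation test) between cells of unequal depth.

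A glycine transporter was expected in 2.52, 0, 36.2, 21.4 and 21.2% of the P14 cells at this depth (16.3% ± 15.003, SD, n = 5), and in 0.639 to 2.57% at P0 (1.64% ± 0.846, SD, n = 5). Heterozygous 2 and the retinas labelled knockout were above all P0 retinas. The wild type and heterozygous 1 were not, and both lay below the 5.05% of P14 rods. At P0 the same share was 4.71% in photoreceptors, above that of the amacrine cells, and 0.102% in progenitors, and the Gad share was 3.30% and 6.01% in these types. The difference of 14.6 points did not pass (p = 0.119, adjusted p = 0.119, two-sided exact permutation test). It passed without heterozygous 1 of P14, which had 3 cells at this depth (18.7 points, adjusted p = 0.0317, exact permutation test). Without heterozygous 2, which had 4 cells, it was 9.65 points (adjusted p = 0.119, exact permutation test). The plot of these shares shows the spread.

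**Figure D4:**
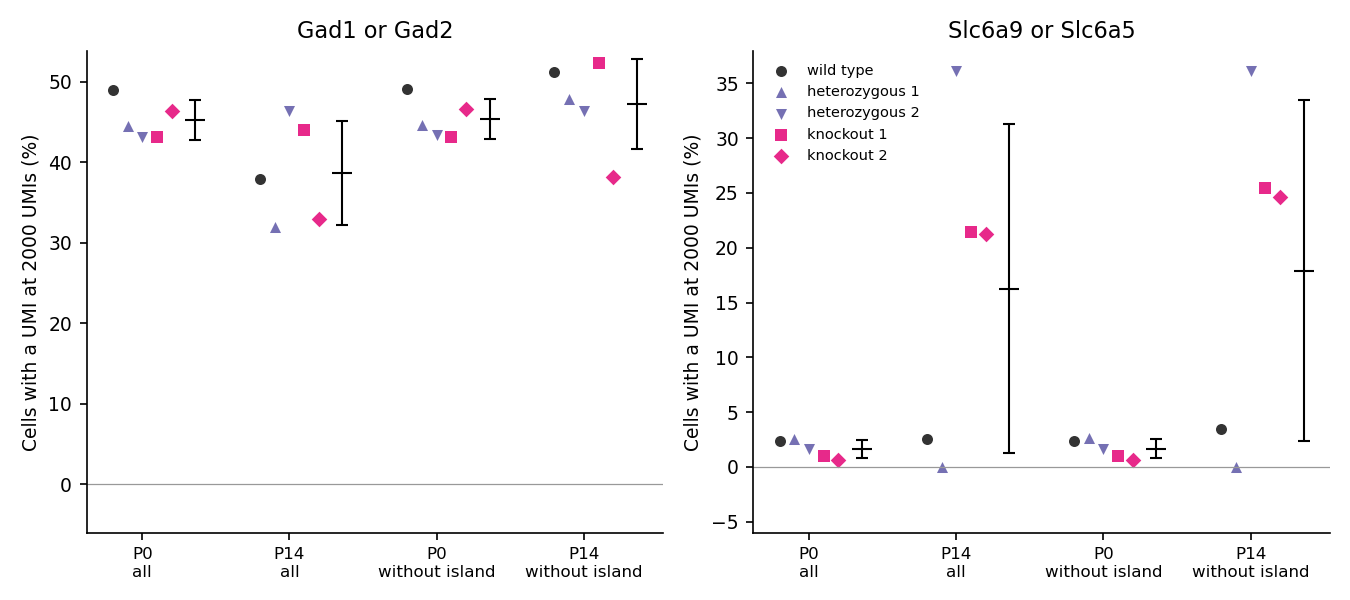
Expected share (%) of amacrine cells with at least 1 UMI of Gad1 or Gad2 (left) or Slc6a9 or Slc6a5 (right) at 2000 UMIs per cell. Each symbol is 1 retina, and the bar beside each group is the mean ± SD of 5 retinas. The Gad shares of the ages overlap, and the glycine shares at P14 run from 0 to 36.2% against 0.639 to 2.57% at P0.

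Counts of receptor, channel and release genes are read against the 19.7% of all genes that were higher and the 21.8% that were lower at P14, and those without the island against 17.4% and 19.9%. Of 11 glutamate receptor genes tested 10 were higher and none lower (median log2 fold change 1.39), and without the island 11 of 12 were higher (2.22). The AMPA receptor subunit Gria2 stood at 325 to 369 CPM at P0 and 496 to 1814 CPM at P14 without overlap, and rose by 1.53 ± 0.43 (adjusted p = 0.00535 by edgeR). The obligatory NMDA receptor subunit Grin1 rose by 3.73 ± 0.29, from 7.69 to 15.6 CPM to 79.2 to 472 CPM. Of 10 GABA and glycine receptor genes, 6 were higher and 1 lower, and without the island 6 were higher and none lower. Glra3 rose by 4.34 ± 0.54 and the glycine receptor beta subunit Glrb by 4.13 ± 0.37. The lower one was Glra2, a glycine receptor subunit of the developing brain, which fell by 1.62 ± 0.41 with all cells and did not pass without the island (-0.64 ± 0.44, adjusted p = 0.250 by edgeR).

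The chloride exporter Slc12a5 (KCC2), which makes GABA and glycine inhibitory in mature neurons, stood at 42.5, 49.0, 48.8, 64.3 and 35.5 CPM at P0 and at 248, 286, 314, 264 and 375 CPM at P14. No retina of either age overlapped, and the rise was 2.57 ± 0.21 (adjusted p = 2.94e-10 by edgeR), or 2.81 ± 0.22 without the island. The chloride importer Slc12a2 (NKCC1) also rose, by 3.56 ± 0.33, or 1.49 ± 0.49 without the island, where it did not pass with DESeq2 (1.00) or without knockout 1 (1.21) or knockout 2 (0.54).

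Of 20 synaptic vesicle and release genes 15 were higher and 1 lower (median 1.504), and without the island 15 of 18 were higher and none lower (1.82). The SNARE protein Snap25 rose from 128 to 152 CPM at P0 to 1022 to 2525 CPM at P14 (3.59 ± 0.49, adjusted p = 1.62e-06 by edgeR). The vesicle protein Sv2a and the complexin Cplx3, which is typical of retinal amacrine and ribbon synapses, rose by 2.04 ± 0.29 and 1.57 ± 0.36, and with all cells Cplx3 did not pass without knockout 2 (0.42). Of 16 voltage-gated channel genes 13 were higher and none lower (median 1.77), and 13 of 15 without the island (2.07), among them the sodium channel Scn2a (2.86 ± 0.37), the potassium channel Kcna2 (2.82 ± 0.30) and the calcium channel subunit Cacna2d2 (1.87 ± 0.28). Of 7 calcium-binding protein genes 5 were higher and 6 of 6 without the island, where Calb1 had 20 of its 1512 UMIs, and Ncald was among them (2.33 ± 0.30). Of 6 neuropeptide and granule genes 5 were higher in both fits, among them the secretogranin Scg2 (2.51 ± 0.34). The axonal neurofilament Nefl rose by 2.45 ± 0.42. It is a ganglion cell marker, and the 17 markers of that list summed to 3501, 2697, 78.6, 3129 and 712 CPM in the 57 cells of wild type, heterozygous 1 and 2 and knockout 1 and 2. Their part in the rise of Nefl was not tested.

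Of the 30 genes of young neurons tested, 18 were lower, none was higher and 12 did not pass with all cells (median -1.38), against 19.7% higher and 21.8% lower over all genes. Sox11, a transcription factor of newborn neurons, stood at 1422, 1490, 1408, 1434 and 1386 CPM at P0 and at 52.6, 0, 78.6, 15.5 and 62.6 CPM at P14, and fell by 5.17 ± 0.57 (adjusted p = 5.17e-08 by edgeR). Its relative Sox4 fell by 5.21 ± 0.63, from 3210 to 3888 CPM to 0 to 204 CPM. Cd24a, a surface protein of immature neurons, fell from 490 to 566 CPM at P0 to 0 to 15.03 CPM (-6.64 ± 0.59, adjusted p = 9.42e-10 by edgeR). Nnat (-4.26 ± 0.71), Tmsb10 (-3.19 ± 0.59) and the tubulin regulator Stmn1 (-3.12 ± 0.56) also fell. Without the island 18 of the 30 were lower, 4 higher and 8 did not pass, against 17.4% higher and 19.9% lower over all genes. Of 9 progenitor markers tested, 8 were lower and none higher, and without the island 6 were lower. Among 11 immediate early genes, which dissociation can induce, 1 was higher (Fosb, 2.52, adjusted p = 1.27e-05 by edgeR) and 3 were lower with all cells, and 4 were higher and 2 lower without the island, with the shares lower near those of all genes.

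Of the 9 horizontal cell markers tested, a list that includes Tfap2b, 8 were higher and none lower with all cells, against 19.7% and 21.8% of all genes. Without the island 5 of them passed the filter, of which 1 was higher and 3 lower, against 17.4% and 19.9%. Onecut2, a relative of Onecut1 that young amacrine cells also express, stood at 113 to 191 CPM at P0 and rose by 1.25 ± 0.36 with all cells (0.52, not past the threshold, when cells were thinned to 2000 UMIs), but fell by 3.52 ± 0.54 without the island (adjusted p = 1.74e-06 by edgeR). Vim, an intermediate filament, changed from a rise of 4.59 ± 0.68 to a fall of 2.47 ± 0.67 (adjusted p = 0.00342). The other genes called in opposite directions, named after their values were seen, were Dock4, Myo16, Ndrg1, Smarca4, Tpm3 and Tpm3-rs7. The plot of fold changes with and without the island shows these genes away from the diagonal.

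**Figure D5:**
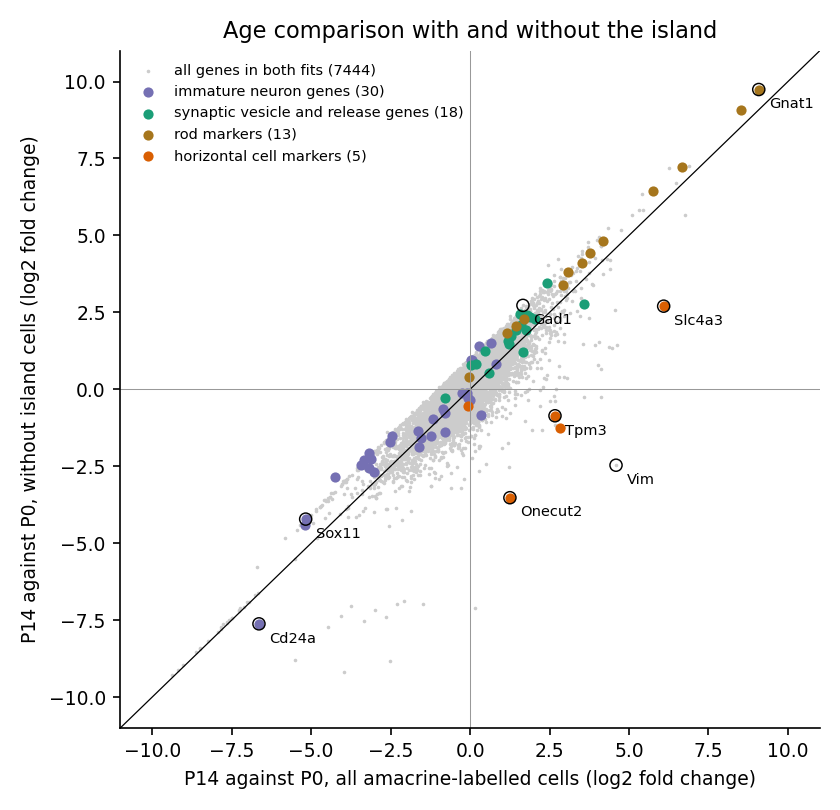
Log2 fold change of P14 against P0 by edgeR without the island cells (vertical) against that with all amacrine-labelled cells (horizontal) for the 7444 genes in both fits, with 4 gene lists in colour and the line of equal values. Immature neuron genes lie mostly at the lower left and synaptic genes at the upper right in both fits, whereas Onecut2, Tpm3 and Vim rise in one and fall in the other.

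The genotype comparison asked whether amacrine cells of the retinas labelled knockout differed from those of the wild-type and heterozygous retinas together. *Sstr2* (chr11:113619342-113626028 in mm10, plus strand) was counted first. Its UMIs in the P14 amacrine cells numbered 2 for the wild type, 2 and 0 for heterozygous 1 and 2, and 1 and 13 for the retinas labelled knockout, 12 of them in 1 cell. A 3' tag may lie outside the deleted part, so these counts do not check the labels. All 18 UMIs of the P14 library lay in 5 amacrine-labelled cells, 3 of which were horizontal-like cells with 4 UMIs, and the 3230 cells of other types had 0, which allows a share of up to 0.0929% of them with a UMI. At P0 the amacrine cells held 6, 12, 27, 36 and 25 *Sstr2* UMIs in the same order of retinas, and the 4693 other cells held 1429.

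Of 2990 genes tested at P14, 1 was higher in the retinas labelled knockout (0.0334%) and 0 were lower by edgeR, with 91 genes at an unadjusted p under 0.05 and no call by DESeq2, where 52 were under 0.05. The gene was Id4, a helix-loop-helix inhibitor of differentiation, with 31 and 23 UMIs in the retinas labelled knockout, 2 in the wild type and 0 in both heterozygous retinas. Its ratio of CPM was 29.5 (counting interval 7.77 to 249), with an adjusted p of 0.00623 by edgeR. All 56 UMIs lay in the 57 cells, and the call was lost without the horizontal-like cells, where its fitted log2 fold change was 3.98 against 5.13. There 2136 genes were tested, 16 had an unadjusted p under 0.05 and none passed. The other genes named by the same rule did not pass. They were Hpgd (12 and 30 UMIs against 4, 0 and 0) and Ackr1 (11 and 21 against 4, 1 and 0) on the higher side, and Cst3, Clu and Asrgl1 on the lower side, each with an adjusted p of 0.999 by edgeR. In simulated data of this design edgeR recovered 11% of genes changed 4-fold, so that most changes of this size were not detectable.

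The amacrine share of the P14 cells was 1.5% for the wild type, 0.541% and 1.32% for heterozygous 1 and 2, and 3.50% and 3.68% for the retinas labelled knockout. Both of the latter were above the other 3, with means of 3.59% ± 0.129 (SD, n = 2) and 1.12% ± 0.509 (SD, n = 3). The difference of 2.47 points gave p = 0.1 in a two-sided exact permutation test, the smallest that 2 against 3 retinas allow. As a share of the cells other than rods the values were 4.52, 2.38, 6.90, 7.59 and 12.8% (p = 0.2, exact permutation test). Leaving out the horizontal-like cells, the difference was 2.18 points (p = 0.1, exact permutation test). Papain dissociation recovers cell types unequally, and its part in these shares was not tested.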

How the data were processed

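The authors made 10x Chromium 3' v3 libraries of MULTI-seq samples, ran Cell Ranger (3.1.0 with build mm10, per the submitters' processing notes), assigned cells to samples with deMULTIplex and annotated cell types in Seurat 3. The deposited raw UMI counts are whole numbers without normalization, and the conditions of the retinas are those the authors recorded for each cell. The deposited SCTransform matrices were not used here, and the filters on cells are not given in the sources used here. The members, gene lists and comparisons were chosen with earlier results of these data known.

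Counts were summed per retina and tested over the 16573 genes in both tables in R 4.3.3 with edgeR 4.0.16 (filterByExpr, TMM, quasi-likelihood, Benjamini-Hochberg adjustment, threshold 0.05), with DESeq2 1.42.0 as an alternative. The study's own test, a Wilcoxon test over cells, takes cells as replicates and was not run. Shares of cells were compared by two-sided exact permutation. Thinned shares are hypergeometric expectations at 2000 UMIs. Named genes were the 10 largest rises and falls with at least 50 UMIs and retinas of each age apart, the 3 largest for genotype (at least 20 UMIs), the 15 largest ratios to other P14 cells (at least 30 UMIs) and the 8 largest between Gad-only and glycine-only cells (at least 20 UMIs). A few genes that the rule or lists hold are not reported here. Genes of the lists named besides these were chosen after their values were seen. Where 200 genes were changed 4-fold in simulated counts, the share recovered by edgeR was 97% for age, 82.5% for age without the horizontal-like cells and 11% for genotype. Apart from those 200 genes the simulated retinas had the same mean composition. In the data 41.5% of genes were called for age, so the simulated shares for age may not hold there. Depth per retina is given with the cells. Positions are from GENCODE M21. Alternatives covered scaling, test, filters, thinning, rod RNA, genotype as a covariate, Scrublet marks and each retina left out. Scrublet ran in scanpy 1.11.5, and Python 3.11.15, numpy 2.4.6, scipy 1.17.1, pandas 2.3.3 and matplotlib 3.10.9 did the rest.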

Additional observations from a re-analysis of the deposited data

Results flagged for a closer look

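Of 48 groups of 4 or 5 samples examined, 1 held a sample far from the others, where chance gives about 1 in 20. The amacrine share of P0 cells in heterozygous 1 was 14.7%, below the 18.1 to 19.2% of the other 4 P0 retinas.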

How the results depend on the processing

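No paired analysis was possible because the labels give the retinas no replicate numbers. The numbers used here follow the order of the sample tags and only name retinas. The horizontal-like and ganglion-marked cells were set apart after seeing the data. The count of 3350 age calls was 1226 when each cell was thinned to 2000 UMIs, which left 3070 genes to test, and 1213 of 2982 without the horizontal-like cells. It ran from 2470 to 4084 as each retina was left out (1704 to 3948 without the horizontal-like cells, lowest without heterozygous 2 of P0, where fewer genes were tested). The Gad difference of -6.57 points was -32.8 without thinning and -10.7 at 3000 UMIs (both adjusted p = 0.0159 by exact permutation), and reversed to 5.95 with at least 2 UMIs required, 1.82 without the horizontal-like cells and 6.97 without the ganglion-marked cells as well. As each retina was left out it ran from -8.51 (adjusted p = 0.0476 without heterozygous 2 of P14) to -4.89, and the glycine difference from 9.65 to 18.7 points.

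Of the 68 cells, 17.6% had at least 2 UMIs of a glycine transporter, against 29.4% with at least 1, and 8.82% had both kinds, against 19.1%. At 2000 UMIs the expected shares were 16.8% and 5.64% of the 63 cells deep enough. The genotype comparison gave 0 calls with DESeq2, with DESeq2 size factors in edgeR, with rod RNA removed, against heterozygous retinas only and without the horizontal-like cells, 5 without a filter, and 0 to 16 as each retina was left out, the most without heterozygous 2. Id4 also lost its call without heterozygous 1 (4.50 against 5.13), and with thinning the 1 call was Cst3 (-3.90).

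Onecut2 was at -3.52 without the horizontal-like cells, -5.43 without the ganglion-marked cells as well, and -2.69, -3.41 and -3.91 without the horizontal-like cells with thinning, rod RNA removed or DESeq2. Vim was at -2.47 and -2.85 in the first pair of these, -4.30 with rod RNA removed and -2.85 with DESeq2. As each retina was left out, with or without the horizontal-like cells, Onecut2 ran from -5.23 to 1.44, Vim from -4.18 to 4.81 and Tfap2b from -1.38 to 0.11. Tfap2b changed sign in 5 of these fits (0.03 to 0.11), with no call in those 5. For the 62 genes named for age, the alternatives gave 1841 values, of which 1764 kept direction and call. The call was lost in 28 (9 genes) and gained in 20 (2 genes), and 29 (3 genes, those above) changed sign. Fits in which a gene was not tested are not among these values, so that Gad1 has 33 and Syt2 17. Of the genes named for genotype, Id4 lost its call in 5 fits, and Cst3 and Hpgd gained one in 1 fit each. The cause of these shifts was not tested beyond the cells left out.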

Other observations

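Markers of other cell types were summed over the 57 cells. The 19 rod markers summed to 1851 UMIs, or 2679 to 8887 CPM by retina, and the 17 ganglion cell markers to 709 UMIs. The 10 horizontal cell markers summed to 457 UMIs, of which 304 were of Tfap2b, also a marker of amacrine cells. The 12 progenitor markers, most abundant among them Pax6, which amacrine cells also express, summed to 386. The 15 Muller glia markers summed to 279 UMIs in the 57 cells, the 15 bipolar markers to 132, the 10 cone markers to 43 and the 4 astrocyte markers to 47. By retina the Muller glia sum was 722, 270, 3930, 489 and 743 CPM in wild type, heterozygous 1 and 2 and knockout 1 and 2. The 8 vascular markers summed to 13 UMIs, the 10 microglia markers to 7 and the markers of the retinal pigment epithelium to 0. Over all 68 cells, Vim was the most abundant Muller glia marker with 1371 UMIs and Prkca the most abundant bipolar marker with 43. Of the 9 Muller glia markers tested between ages, 3 were higher and 2 lower at P14, where 19.7% and 21.8% of all genes were.

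The 11 horizontal-like cells also carried most UMIs of the neuropeptide Npy (159 in 8 cells, against 5 in 5 of the 57) and of the homeobox factor Prox1, which had 580 UMIs in all 11 cells and 76 in 13 of the 57. The peptide precursor Cartpt showed the opposite distribution, with 2 UMIs in 2 of the 11 cells.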
